A study of Mus musculus with 7 samples.

Results

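The xenobiotic metabolism enzyme genes are the genes whose products oxidise, hydrolyse and conjugate foreign chemicals. They were chosen by symbol, as the microsomal P450 genes of families 1 to 4 (Cyp1 to Cyp4), the glutathione transferases (Gst and Mgst), the glucuronosyltransferases (Ugt1 and Ugt2), the flavin monooxygenases (Fmo), the aldehyde oxidases (Aox), the epoxide hydrolases (Ephx1 and Ephx2), the carboxylesterases (Ces1 to Ces3), the sulfotransferases (Sult1 and Sult2), Nqo1, Por and Ahr. Of 21121 genes listed in each library, 91 matched. They comprised 36 P450 genes, 20 glutathione transferases, 10 carboxylesterases, 8 glucuronosyltransferases (all of the Ugt1a locus), 5 flavin monooxygenases, 4 sulfotransferases, 3 aldehyde oxidases and 2 epoxide hydrolases, with Nqo1, Por and Ahr as single genes. No Cyp1 gene was among the matched rows, and none was analysed here.

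The study followed epithelial cells of the developing lung of C57BL/6 mice, without any named allele, transgene or treatment. Live cells were sorted by flow cytometry for the epithelial surface protein Epcam and against CD31, CD45, Ter119 and CD146, which mark vessel, blood and red cells. The stages were embryonic day 13.5 (E13.5, 1 library), E15.5 (1 library), E18.5 (2 libraries), postnatal day 14 (P14, 1 library) and P56 (2 libraries). RNA was read by 3' SAGE sequencing, which counts short tags near the 3' end of polyadenylated transcripts. The labels do not give the number, sex or litter of the mice behind a library.

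Foreign chemicals are commonly handled in successive steps. P450s, fed with electrons by the reductase Por, and flavin monooxygenases, aldehyde oxidases, epoxide hydrolases and carboxylesterases expose or add a reactive group. Transferases then attach glutathione, glucuronic acid or sulfate, which makes the product water-soluble. In the mouse lung, the secretory club cells of the airways are known for their high P450 content, and the P450 Cyp2f2 is the enzyme that makes naphthalene toxic to them.

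A library held 2559927 to 3895740 reads. Values are tag counts that the authors scaled by 1 factor per library, so that 1 read was worth 0.236 to 0.385 units. The replicates of E18.5 and of P56 were more alike than any pair from different stages, with a chi-square per degree of freedom of 9.36 and 7.21 against 28.4 to 161. Against the sort, Epcam lay between 55.8 and 213 units in every library. The immune marker list summed to 0 to 11 reads per library (4 of 6 genes listed), the endothelial list to 4 to 38 and the basal cell list to 0 to 17 (4 genes each). Of the mesenchymal list (7 genes), Vim had 2564 units at E13.5 and 1193 at E15.5 but between 40.5 and 138 in each later library, and the other 6 genes summed to 34.3 and 189 units in the E13.5 and E15.5 libraries and to between 53.4 and 117 later. The red cell list had 117 reads in E18.5 replicate 2 but 0 in replicate 1. Because these are bulk samples, fewer cells of a type and less RNA per cell cannot be told apart.

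The summed level of the 91 genes was higher in each later stage. The sum over all members was 883 units at E13.5, 1305 at E15.5, 1489 and 1700.0 in the E18.5 libraries, 2586 at P14, and 2993 and 3169.8 in the P56 libraries. This was 0.293% and 0.303% of all values in the P56 libraries, against 0.0959% at E13.5. A large part came from a pair of glutathione transferases, Gsta4 and Gstt3, which together held 57.9% to 70.1% of the sum in each library. Without them the sum was 332 units at E13.5, 391 at E15.5, 569 and 600.2 in the E18.5 libraries, 1031 at P14, and 1259 and 1331 in the P56 libraries, so the order of the stages did not rest on that pair. The number of members with at least 1 read was 37 at E13.5, which was the deepest library, 50 at E15.5, 56 in each E18.5 library, 65 at P14, and 70 and 74 in the P56 libraries.

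Most of the genes had few tags in these cells, and 23 of 91 reached a mean of 20 units in some stage. Of these 23, 17 were highest at P56, 3 at P14, 2 at E18.5 and 1 at E13.5. A gene can reach 20 units through its highest stage alone, as Cyp2b10 did at P56 (26.7 units, against 9.35 at P14). This count therefore describes the 23 only. Of all 91 members, 47 were highest at P56, 19 at P14, 7 at E18.5, 11 at E15.5 and 7 at E13.5, many of them on few reads. The same count over all genes was not made. A filter on low reads left 46 members to be tested. The other 45, among them 24 P450 genes, had 1 to 38 reads over all 7 libraries, and their highest stage mean was 3.03 units (Fmo5 at P14). Because a gene can pass such a filter through the stage in which it is high, counts over the tested members describe those members and not the 91.

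**Figure D1:**
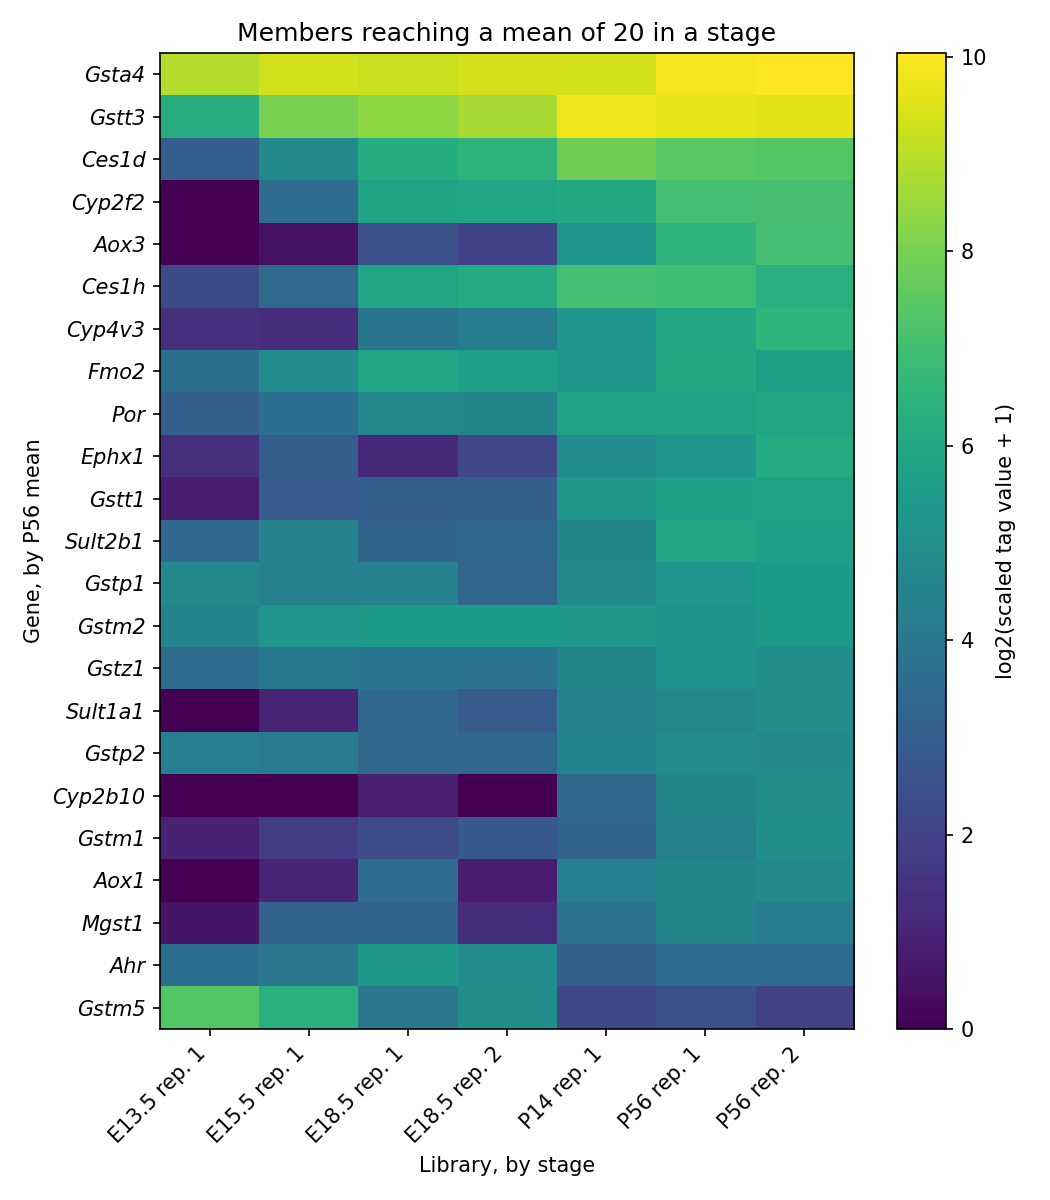
Scaled tag values of the 23 members that reached a mean of 20 in some stage, as log2(value + 1), in each of the 7 libraries ordered by stage; genes run from the highest to the lowest P56 mean. Most rows brighten towards P56, Gsta4 and Gstt3 are bright in every library, and Gstm5 darkens after E15.5.

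The class sums took different courses. Summed P450 values were 12.3 units at E13.5, 44.1 at E15.5, 111 and 129.6 in the E18.5 libraries, 177 at P14, and 296 and 325 in the P56 libraries. Aldehyde oxidases had few tags before E18.5, with 0 units at E13.5, 1.44 at E15.5, 15.8 and 3.77 in the E18.5 libraries, 56.1 at P14, and 115 and 158 in the P56 libraries. Carboxylesterases summed to 15.4 units at E13.5, 44.1 at E15.5, 139 and 173 in the E18.5 libraries, 376 at P14, and 303 and 252 in the P56 libraries, with the highest value at P14. The summed Ugt1a rows were at 0 at E13.5 and 0.359 at E15.5 and then lay between 17.1 and 29.4 in every later library. Glutathione transferases held 1998 and 2121 at P56, against 811 at E13.5.

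**Figure D2:**
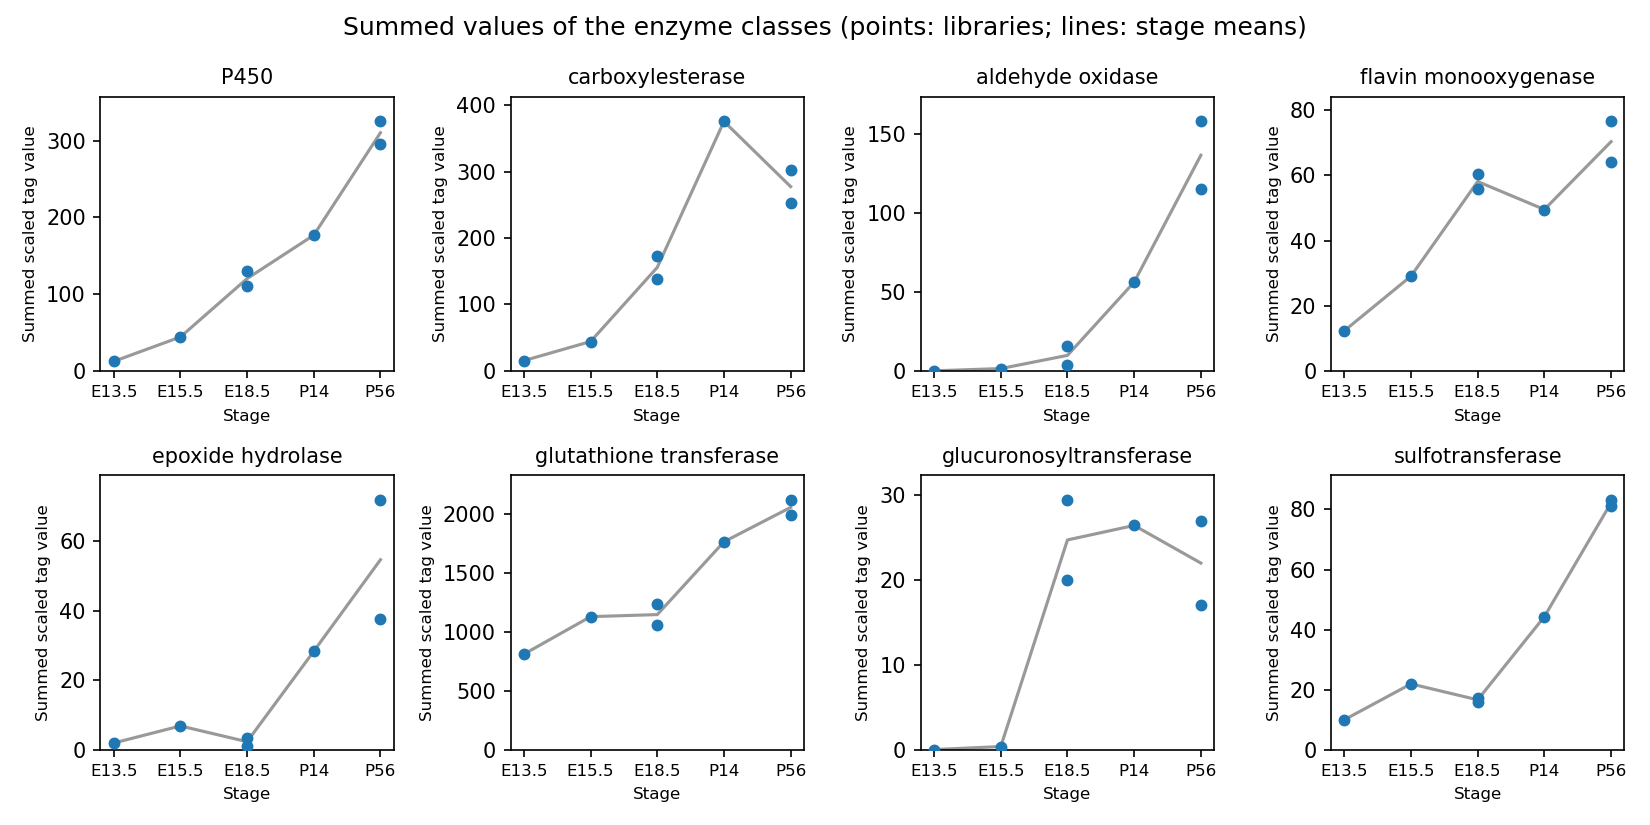
Summed scaled tag value of each enzyme class (vertical axis, starting at 0) by stage; points are libraries and lines join stage means. P450s, aldehyde oxidases and sulfotransferases were highest at P56, while carboxylesterases were highest at P14 and glucuronosyltransferases reached their later range by E18.5.

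Between the early stages and E18.5, more members rose than fell. Changes were tested with limma on log2(value + 1) in 1 fit of all libraries, and genes were called below an adjusted p of 0.05 (Benjamini-Hochberg, over all 12964 tested genes). The stages with a single library were taken to vary as much as the replicated ones, and all p-values measure only the spread between these samples, which may be technical. At E18.5 against the mean of E13.5 and E15.5, 19 of the 46 tested members were higher, where 15.8% of all tested genes were higher. Only Gstm5 was lower, where 13.4% of all tested genes were lower. The median log2 change was 1.17 over the tested members and 0.03 over all tested genes. Of the 19 rows 6 came from the Ugt1a locus, most of whose rows share a 3' end, and 14 members were higher once these rows were summed. Without any Ugt1a row, 13 of 38 tested members were higher, with a median log2 change of 0.92. Leaving out the E13.5 library left 7 of the 19 called: Aox3, Ces1d, Ces1h, Cyp2f2, Cyp4v3, Sult1a1 and Ugt1a7c.

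After birth, rises were called in some oxidases, hydrolases and transferases. By limma on all libraries, none of the 12 tested P450s was called at P14 against E18.5. No tested flavin monooxygenase or glucuronosyltransferase was called against E18.5 at P14 or at P56. At P14 against E18.5, 5 members were higher (Aox3, Ces1d, Ephx1, Gstt1 and Gstt3), where 1.87% of all tested genes were higher. The receptor gene Ahr was the only member that limma called lower, where 1.24% of all genes were lower, and edgeR and DESeq2 also called Gstm5 lower. The median log2 change was 0.70, against 0.08 for all tested genes. At P56 against E18.5, 16 members were higher, where 8.07% of all genes were higher, and Ahr and Gstm5 were lower, where 6.15% of all genes were lower. The median log2 change at P56 against E18.5 was 0.90 over the tested members and 0.06 over all tested genes. Without the Ugt1a rows the member medians against E18.5 were 0.90 at P14 and 1.14 at P56. These comparisons and that of E18.5 with the early stages share the E18.5 libraries, so their values are not independent.

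No member was called between P56 and P14. An unadjusted limma p under 0.05 was found for 7 of the 46 members and for 1340 of all 12964 tested genes. Of all tested genes 0.123% were higher and 0.694% lower at P56 against P14 by limma. By edgeR's quasi-likelihood test 0 members were called too, with 0.571% of all genes higher and 1.49% lower, and DESeq2 also called 0 members. When either one of the E18.5 libraries was left out, edgeR called 5 members higher at P56 against P14, which were Aox3, Cyp2b10, Cyp2f2, Gstm1 and Sult2b1, while the share of all genes called higher was 2.52% without replicate 1 and 2.45% without replicate 2. The median log2 change of the tested members was 0.27, against 0 for all genes.

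All 3 sets of limma calls needed both replicates of both replicated stages. Without any 1 of the E18.5 or P56 libraries, 1 residual degree of freedom was left and limma called no member in any comparison. Without a filter on low values limma still called 11 of the 19 rises at E18.5 against the early stages, 1 of 5 at P14 against E18.5 (Gstt1) and 5 of 16 at P56 against E18.5 (Cyp2f2, Gstp2, Gstt1, Por and Sult2b1), and none of the falls. The shares of all 21121 genes called higher in that fit were 6.4%, 3.86% and 1.68%. With edgeR, leaving out an E18.5 library gave 17 or 14 members higher at P56 against E18.5 (11.4% and 8.95% of all genes), and leaving out a P56 library gave 9 (4.84% and 5.0% of all genes). At P14 against E18.5 it called 10 members higher when either one of the E18.5 libraries was left out, where 7.28% of all tested genes were higher without replicate 1 and 5.1% without replicate 2. The rises that edgeR called whichever library was left out were those of Aox3, Cyp2b10, Cyp4v3, Ephx1, Gstt1, Gstt3 and Sult2b1 at P56 against E18.5. The 5 rises and the fall at P14, and the falls of Ahr and Gstm5 at P56, were also called by edgeR whichever other library was left out.

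**Figure D3:**
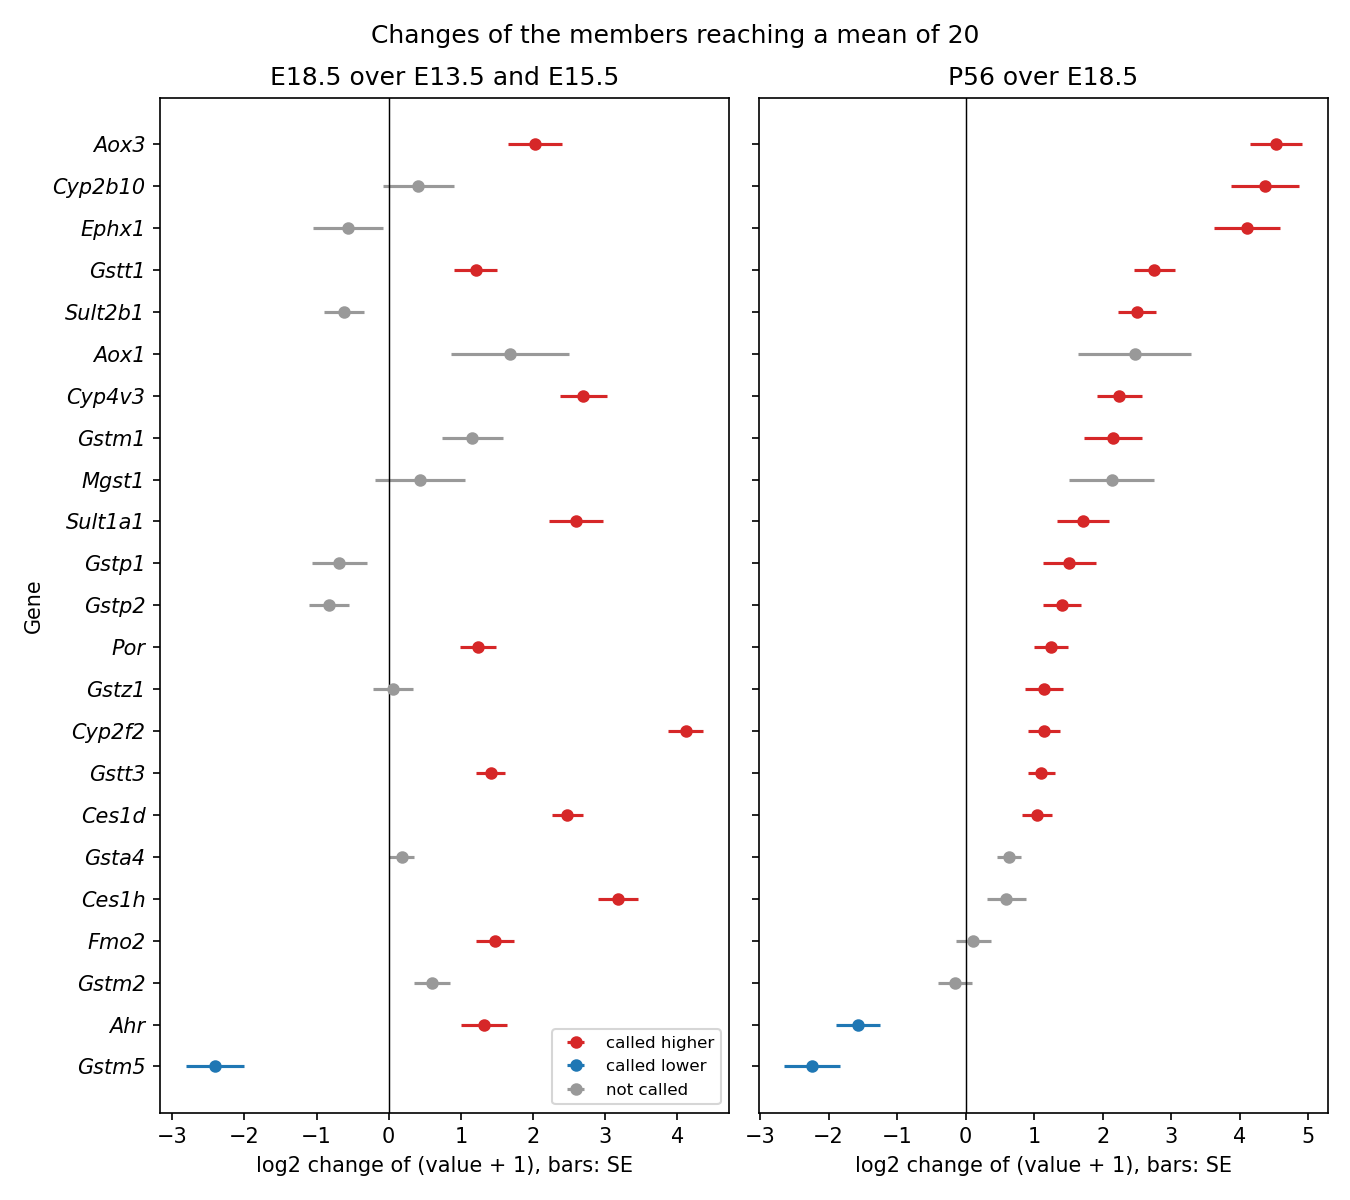
Log2 change of (value + 1) with its standard error for the 23 members that reached a mean of 20, at E18.5 over E13.5 and E15.5 (left) and at P56 over E18.5 (right), coloured by the limma call. Cyp2f2 had the largest rise on the left and Aox3, Cyp2b10 and Ephx1 the largest on the right, while Gstm5 was lower in both panels.

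The marker lists of the cell types in the sort moved over the same stages. The club cell list, with the members themselves left out, summed over 14 of 16 genes to 294 units at E13.5, 569 at E15.5, 1215 and 1634 in the E18.5 libraries, 3155 at P14, and 5202 and 5944 in the P56 libraries. Its main secretory gene Scgb1a1 had 0 units at E13.5, 0.359 at E15.5, 15.02 and 14.7 in the E18.5 libraries, 91.6 at P14, and 344 and 273 in the P56 libraries. Of its 9 tested genes 7 were higher and 1, Cldn10, was lower at P56 against E18.5, and Upk3a was at 0 in 4 libraries. Cldn10 held 282 units at E13.5 and 520 at E15.5, which was most of the list's sum in those libraries. It had 453 and 634 units in the E18.5 libraries, 20.9 at P14, and 17.6 and 8.1 in the P56 libraries. Without Cbr2 the list summed to 293 units at E13.5, 552 at E15.5, 775 and 1107 in the E18.5 libraries, 696 at P14, and 1705 and 1602 in the P56 libraries. Aldh1a1, Cbr2 and Pon1 are on this list and also among the other pathway genes counted here. The alveolar type 2 list (10 genes) summed to 235 units at E13.5, 11615 and 11473 at E18.5, and 54261 and 60719 at P56. The alveolar type 1 list (10 genes) summed to 66.4 at E13.5, 7258 and 8119 at E18.5, and 3303 and 3787 at P56. Its P14 sum was 6807. Most of the P56 sums came from Aqp5, which had 1931 and 2181 units in the E18.5 libraries but 2545 and 3000 in the P56 libraries. Without Aqp5, the E18.5 libraries held 5328 and 5938 units, the P14 library 3668, and the P56 libraries 759 and 787. Limma called 9 of the 10 genes lower at P56 against E18.5, where 6.15% of all tested genes were lower. Of the ciliated list (8 genes), Tppp3 had 172 units at E13.5, 308 at E15.5, 793 and 867 in the E18.5 libraries, 2314 at P14, and 1595 and 1849 in the P56 libraries, while the other 7 genes summed to 12.5 at E13.5, 94.7 at E15.5, 99.3 and 101 in the E18.5 libraries, 24.2 at P14, and 112 and 129 in the P56 libraries. At P14 against E18.5 the median log2 change of its 6 tested genes was -1.34, and 1 of the 6 was positive. The part of these lists in the changes of the members was not tested.

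Among the P450s, Cyp2f2 and Cyp4v3 rose in both periods. Cyp2f2 had 0 units at E13.5, 11.1 at E15.5, 57.8 and 61.04 in the E18.5 libraries, 68.5 at P14, and 132 and 133 in the P56 libraries. Both E18.5 libraries lay above the early ones, and the P56 libraries lay above all others. E18.5 exceeded the early mean 10.7-fold (log2 change 4.12, SE 0.24, adjusted p = 5.27e-05), and P56 exceeded E18.5 2.23-fold, at 132 ± 0.531 against 59.4 ± 2.32 (SD, n = 2 each; log2 change 1.14, SE 0.24, adjusted p = 0.0204). Between P14 and E18.5 its log2 change was 0.20, and the call was not made. Cyp4v3, a fatty acid hydroxylase whose human counterpart is CYP4V2, had 1.65 units at E13.5, 1.44 at E15.5, 13.9 and 17.3 in the E18.5 libraries, 39.1 at P14, and 63.5 and 93.6 in the P56 libraries. From E18.5 on, each stage lay above all earlier libraries. Its E18.5 mean was 10.1-fold the early mean (log2 change 2.699, SE 0.33, adjusted p = 0.00121) and its P56 mean 5.04-fold the E18.5 mean (log2 change 2.24, SE 0.33, adjusted p = 0.00526). Both P56 calls were made with limma and edgeR, but without P56 replicate 1 edgeR no longer called Cyp2f2.

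Cyp2b10, the P450 known in mouse liver for its induction by phenobarbital through the receptor CAR, was a postnatal gene in this series. It had 0 units at E13.5, 0 at E15.5, 0.77 and 0 in the E18.5 libraries, 9.35 at P14, and 23.05 and 30.4 in the P56 libraries. Just 2 reads were found at E18.5 against 175 at P56, and both P56 libraries lay above the P14 library. Pooled over libraries, P56 had 69.6 times the scaled reads of E18.5, with a 95% counting interval of 18.98 to 579 (log2 change 4.37, SE 0.498, adjusted p = 0.0019). At P14 the ratio was 24.6 (6.3 to 211), with an adjusted p of 0.0517 by limma, and edgeR called this rise. Such intervals cover counting error only. The neighbouring copy Cyp2b13 had reads in P56 replicate 2 alone, at 0.648 units, and 7.5% of the shorter of the pair's 3' ends was shared, so some tags could belong to either.

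Cyp2s1, a P450 known from tissues outside the liver, and Cyp4b1, a lung P450 that activates the toxin ipomeanol, were low throughout. Cyp2s1 had 0 units at E13.5, 2.15 at E15.5, 8.09 and 7.16 in the E18.5 libraries, 4.13 at P14, and 12.2 and 11.98 in the P56 libraries. Its E18.5 libraries lay above the early ones and its P14 library fell between (log2 change 2.28, SE 0.398, adjusted p = 0.0057). For Cyp4b1 the values were 0 units at E13.5, 0.359 at E15.5, 1.93 and 4.14 in the E18.5 libraries, 5.23 at P14, and 6.83 and 7.13 in the P56 libraries, with 16 reads at E18.5 against 1 read before, a ratio of 21.4 with a counting interval of 3.32 to 897 (log2 change 1.74, SE 0.49, adjusted p = 0.0362). With the filter on low values limma called neither gene in a later comparison, and neither E18.5 call was made without the E13.5 library. The pseudogene Cyp4b1-ps2 shared 25.7% of the shorter 3' end with Cyp4b1 and reached 3.98 and 5.83 units at P56, so the pair may share tags. The other tested P450s were Cyp2e1, Cyp2j6, Cyp3a13, Cyp4b1-ps2, Cyp4f13, Cyp4f16 and Cyp4f17, with no call by limma in the fit of all libraries and no library above 19.4 units. edgeR and DESeq2 called Cyp4f13 higher at E18.5 against the early stages.

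Por, the reductase that passes electrons to all microsomal P450s, had 7.33 units at E13.5, 11.8 at E15.5, 23.9 and 22.98 in the E18.5 libraries, 53.4 at P14, and 56.1 and 57.97 in the P56 libraries. Its replicates were close together, and each stage lay above all earlier libraries. E18.5 exceeded the early mean 2.44-fold (log2 change 1.24, SE 0.25, adjusted p = 0.0103). P56 exceeded E18.5 2.43-fold, at 57.02 ± 1.35 against 23.4 ± 0.627 (SD, n = 2 each; log2 change 1.25, SE 0.25, adjusted p = 0.0177). The first call was not made without the E13.5 library, and edgeR did not make the second when either one of the P56 libraries was left out.

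Among the flavin monooxygenases, Fmo2, the form known from the lung, was tagged in every library. It had 12.1 units at E13.5, 28.7 at E15.5, 58.1 and 49.7 in the E18.5 libraries, 36.9 at P14, and 67.2 and 50.5 in the P56 libraries. It was higher at E18.5 than in the early stages (log2 change 1.48, SE 0.26, adjusted p = 0.006), a call not made without the E13.5 library, and the P56 and E18.5 libraries overlapped (log2 change 0.11, SE 0.26, adjusted p = 0.822). Fmo4 had 0 reads in both early libraries and reached 9.35 units at P14 and 5.98 and 10.04 units at P56. Limma on all libraries did not call it. In a fit of the E18.5 and P56 libraries alone, limma called it higher at P56 (adjusted p = 0.0396). At E18.5 against the early stages edgeR called it higher.

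The aldehyde oxidases are molybdenum enzymes that oxidise aldehydes and nitrogen-containing rings, and their genes lie side by side on chromosome 1. Aox3 had 0 units at E13.5, 0.359 at E15.5, 4.62 and 3.01 in the E18.5 libraries, 36.6 at P14, and 90.2 and 131 in the P56 libraries. Each stage from E15.5 on lay above all earlier libraries. With 20 reads at E18.5 against 1 before, the ratio to the early stages was 26.7, with a counting interval of 4.28 to 1108 (log2 change 2.03, SE 0.38, adjusted p = 0.00733). P14 exceeded E18.5 9.59-fold (log2 change 2.98, SE 0.46, adjusted p = 0.0223), and P56 exceeded E18.5 28.96-fold, at 111 ± 28.7 against 3.82 ± 1.14 (SD, n = 2 each; log2 change 4.53, SE 0.38, adjusted p = 0.000473). Aox1 had 0 units at E13.5, 1.08 at E15.5, 11.2 and 0.753 in the E18.5 libraries, 19.3 at P14, and 23.3 and 25.9 in the P56 libraries. Its E18.5 replicates differed by more than 10 units, and although both P56 libraries lay above them limma did not call the change (log2 change 2.47, SE 0.82, adjusted p = 0.0933) except in a fit of the E18.5 and P56 libraries alone (adjusted p = 0.0401). At E18.5 against the early stages Aox1 was called higher by edgeR (adjusted p = 0.0195) and DESeq2 (adjusted p = 0.00909), and not by limma (adjusted p = 0.166). Aox4, the third gene of the row, did not exceed 1.42 units in any library.

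Ephx1, the microsomal epoxide hydrolase that turns reactive epoxides into diols, had 1.65 units at E13.5, 6.82 at E15.5, 1.16 and 3.39 in the E18.5 libraries, 28.3 at P14, and 37.6 and 71.9 in the P56 libraries. Its fetal values were all below 7 units, and its postnatal ones all above 28. P14 exceeded E18.5 12.5-fold (log2 change 3.25, SE 0.59, adjusted p = 0.036) and P56 exceeded E18.5 24.1-fold (log2 change 4.11, SE 0.48, adjusted p = 0.00221). The P56 replicates themselves differed, at 54.7 ± 24.3 (SD, n = 2) against 2.27 ± 1.58 at E18.5. Ephx2, the soluble epoxide hydrolase, had a read at E13.5 alone.

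The carboxylesterase 1 genes Ces1d and Ces1h, whose enzymes cleave ester drugs and lipid esters, rose before birth, and Ces1d rose again after it. Ces1d had 7.09 units at E13.5, 26.6 at E15.5, 73.9 and 91.2 in the E18.5 libraries, 233 at P14, and 174 and 165 in the P56 libraries. Its E18.5 mean was 4.91-fold the early mean (log2 change 2.48, SE 0.22, adjusted p = 0.00034), and P14 exceeded E18.5 2.83-fold (log2 change 1.495, SE 0.27, adjusted p = 0.0346). P56 exceeded E18.5 2.06-fold (log2 change 1.04, SE 0.22, adjusted p = 0.0214), although edgeR did not make that call without P56 replicate 1. Ces1h had 3.78 units at E13.5, 10.05 at E15.5, 58.5 and 71.6 in the E18.5 libraries, 131 at P14, and 119.5 and 80.6 in the P56 libraries. It was 9.41-fold higher at E18.5 than in the early stages (log2 change 3.18, SE 0.28, adjusted p = 0.000334), and the P14 and P56 libraries lay above those of E18.5 without a call by limma (log2 change 1.005, adjusted p = 0.177 at P14 and log2 change 0.59, adjusted p = 0.213 at P56). The neighbours Ces1e, Ces1f and Ces1g did not exceed 1.99 units. Among the Ces2 genes, Ces2b alone was tested and had 2.84 to 8.67 units, with no call.

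**Figure D4:**
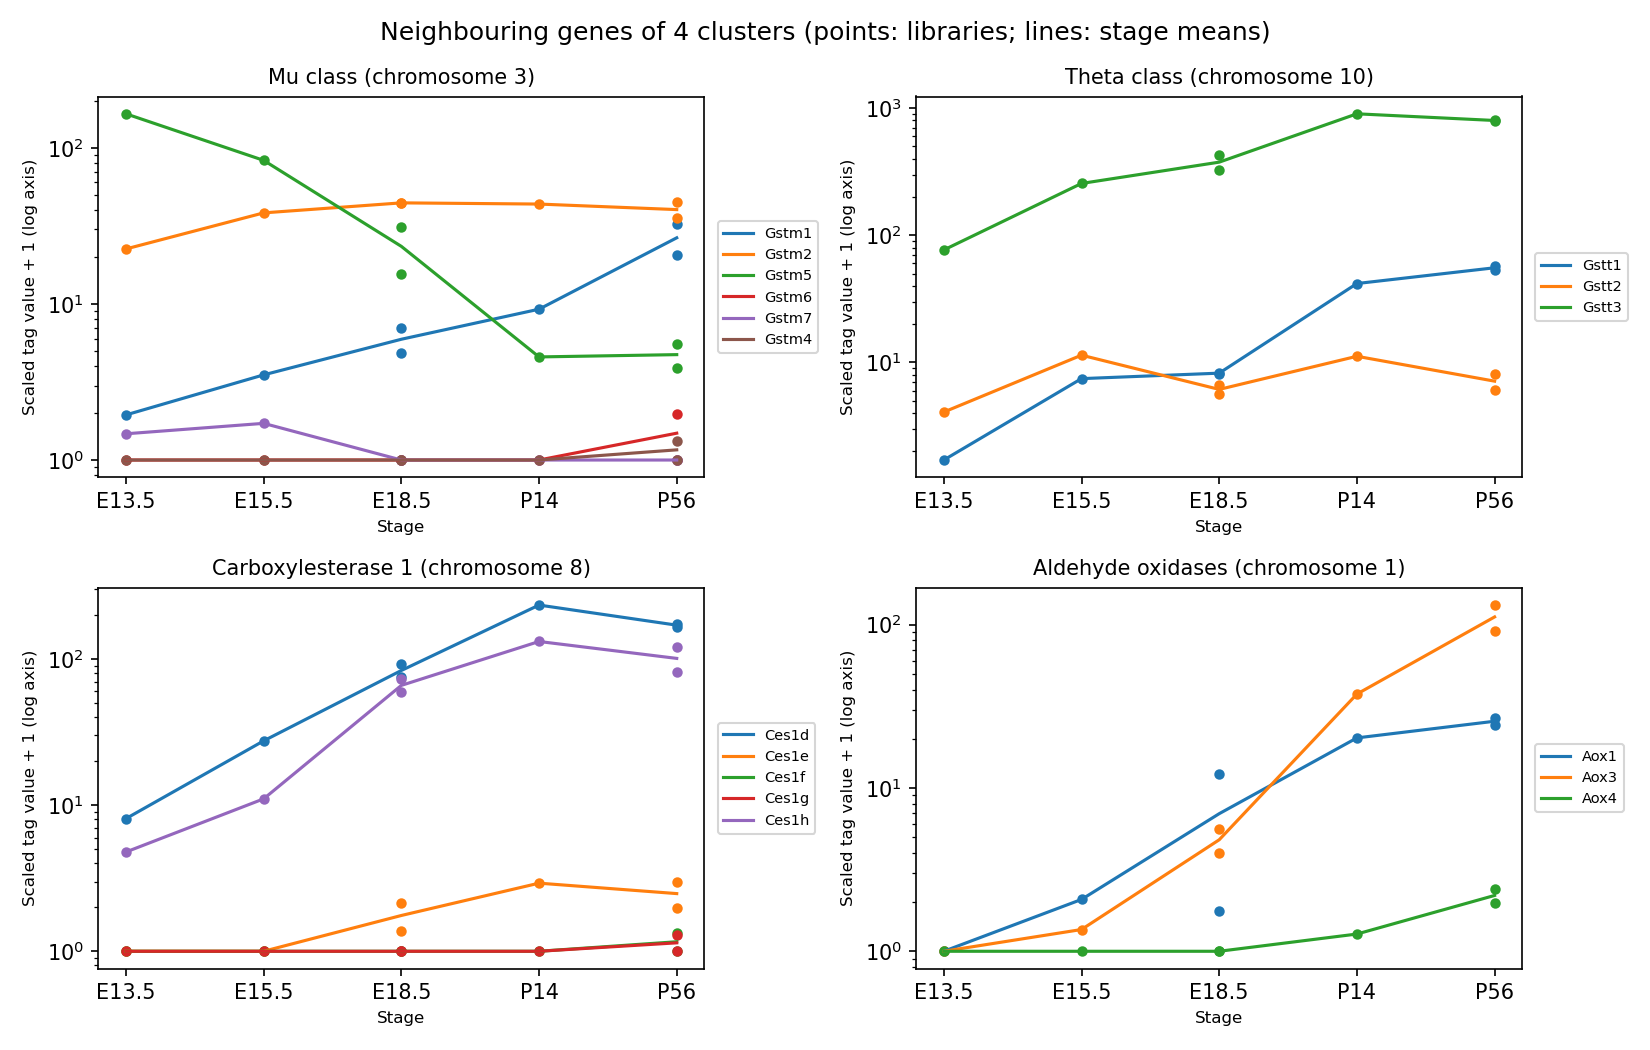
Scaled tag value + 1 on a log axis, by stage, for neighbouring genes of 4 clusters: the Mu class glutathione transferases, the Theta class, the carboxylesterase 1 genes and the aldehyde oxidases; points are libraries and lines join stage means. Within the Mu cluster Gstm5 fell while Gstm1 rose and Gstm2 stayed between 21.5 and 43.7, and in each of the other clusters 1 or 2 genes held nearly all of the signal.

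Glutathione transferases gave 7 of the 16 rises at P56 against E18.5, and 1 of the falls. Of this class 14 genes were tested. Of all tested genes 8.07% were higher and 6.15% lower in that comparison. Within the Mu cluster on chromosome 3 the neighbours differed. Gstm5 had 164 units at E13.5, 82.2 at E15.5, 14.6 and 30.1 in the E18.5 libraries, 3.58 at P14, and 4.55 and 2.91 in the P56 libraries. Every library after E15.5 lay below both earlier ones. E18.5 was 5.504-fold lower than the early mean (log2 change -2.41, SE 0.402, adjusted p = 0.00479) and P56 was 5.995-fold lower than E18.5 (log2 change -2.24, SE 0.402, adjusted p = 0.0116). Gstm1 had 0.945 units at E13.5, 2.51 at E15.5, 3.85 and 6.03 in the E18.5 libraries, 8.25 at P14, and 19.6 and 31.4 in the P56 libraries, and P56 exceeded E18.5 5.17-fold (log2 change 2.15, SE 0.42, adjusted p = 0.0167). Without P56 replicate 2, edgeR no longer called that rise. Gstm2 had 21.5 units at E13.5, 37.3 at E15.5, 43.5 and 43.3 in the E18.5 libraries, 42.6 at P14, and 34.7 and 43.7 in the P56 libraries, with overlapping P56 and E18.5 libraries and no call in any comparison by limma, edgeR or DESeq2 on all libraries. Without the E15.5 library it was called higher at E18.5 than at E13.5. Gstm4, Gstm6 and Gstm7 did not exceed 0.972 units.

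The promoter windows of these 3 Mu genes are shown because the genes lie in 1 cluster and moved differently, and those of Aox3 and Cyp2b10 because they had the 2 largest rises at P56. Each is the 250 bases before the RefSeq start of the gene in GRCm38.p6, written 5' to 3' on the strand of the gene. Capitals mark the antioxidant response element TGACNNNGC, which NRF2 binds, and the core GCGTG of the element that the Ahr complex binds, each searched on both strands. The Gstm5 window lies at chr3:107895604-107895853, plus strand, that of Gstm1 at chr3:108017974-108018223, minus strand, and that of Gstm2 at chr3:107986421-107986670, minus strand. The Aox3 window lies at chr1:58112886-58113135, plus strand, and that of Cyp2b10 at chr7:25897408-25897657, plus strand.
Gstm5: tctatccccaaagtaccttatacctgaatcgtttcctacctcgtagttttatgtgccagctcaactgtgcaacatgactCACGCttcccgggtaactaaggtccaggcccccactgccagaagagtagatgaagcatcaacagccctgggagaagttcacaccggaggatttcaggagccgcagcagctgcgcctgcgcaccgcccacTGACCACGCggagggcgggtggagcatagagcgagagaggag
Gstm1: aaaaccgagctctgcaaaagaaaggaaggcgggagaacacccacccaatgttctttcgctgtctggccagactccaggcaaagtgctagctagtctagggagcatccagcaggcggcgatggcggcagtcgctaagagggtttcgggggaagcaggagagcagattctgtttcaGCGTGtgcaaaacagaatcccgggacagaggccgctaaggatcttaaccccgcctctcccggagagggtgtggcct
Gstm2: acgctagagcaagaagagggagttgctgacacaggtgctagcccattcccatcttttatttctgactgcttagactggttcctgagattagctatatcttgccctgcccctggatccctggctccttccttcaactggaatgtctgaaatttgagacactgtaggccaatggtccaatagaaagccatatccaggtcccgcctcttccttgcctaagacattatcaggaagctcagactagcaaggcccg
Aox3: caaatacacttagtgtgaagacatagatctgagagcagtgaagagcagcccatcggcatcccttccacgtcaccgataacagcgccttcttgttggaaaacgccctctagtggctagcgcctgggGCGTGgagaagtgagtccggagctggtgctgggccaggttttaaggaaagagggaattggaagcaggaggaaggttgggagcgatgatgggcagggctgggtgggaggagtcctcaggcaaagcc
Cyp2b10: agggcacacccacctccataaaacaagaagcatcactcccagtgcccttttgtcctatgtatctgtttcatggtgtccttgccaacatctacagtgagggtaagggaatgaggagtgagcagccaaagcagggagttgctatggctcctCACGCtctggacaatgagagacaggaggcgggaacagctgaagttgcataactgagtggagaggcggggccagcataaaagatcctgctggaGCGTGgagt

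TGACNNNGC was found in the Gstm5 window alone of these 5, where it overlaps 1 of the 2 GCGTG matches. GCGTG was found in the windows of Gstm5, Gstm1, Aox3 and Cyp2b10 and not in that of Gstm2. A total of 72 members had a window. TGACNNNGC was in 4 of these (5.6%) and in 10.2% of all 32851 windows of that length, and GCGTG was in 16 (22.2%) and in 28.2% of all windows. A match describes the letters of the window only.

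Theta class enzymes, which act on small halogenated compounds, rose over the stages in 2 of 3 genes. Gstt3 had 75.6 units at E13.5, 254 at E15.5, 325 and 424 in the E18.5 libraries, 900.1 at P14, and 807 and 789 in the P56 libraries. Its libraries after birth all lay above those before. E18.5 exceeded the early mean 2.27-fold (log2 change 1.41, SE 0.196, adjusted p = 0.00218), P14 exceeded E18.5 2.403-fold (log2 change 1.27, SE 0.24, adjusted p = 0.0395) and P56 exceeded E18.5 2.13-fold (log2 change 1.101, SE 0.196, adjusted p = 0.0113). Gstt1 had 0.709 units at E13.5, 6.46 at E15.5, 7.32 and 7.16 in the E18.5 libraries, 40.7 at P14, and 52.6 and 56.4 in the P56 libraries. It was 5.63-fold higher at P14 (log2 change 2.34, SE 0.36, adjusted p = 0.0226) and 7.53-fold higher at P56 than in the E18.5 libraries (log2 change 2.75, SE 0.297, adjusted p = 0.00143), and 2.02-fold higher at E18.5 than before (log2 change 1.21, SE 0.297, adjusted p = 0.0214). For both genes the call at E18.5 against the early stages was not made without the E13.5 library. Gstt2, the third of the cluster, had 3.07 to 10.4 units and no call.

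Gsta4, an Alpha class enzyme that conjugates hydroxynonenal from oxidised lipids, had high values at every stage, with 475 units at E13.5, 660.2 at E15.5, 594 and 676 in the E18.5 libraries, 655 at P14, and 927 and 1050.3 in the P56 libraries. Both P56 libraries lay above all others, but the change from E18.5 just missed the threshold with limma (log2 change 0.64, SE 0.18, adjusted p = 0.0534). It was called by DESeq2's Wald test (adjusted p = 0.0491) and by limma on the E18.5 and P56 libraries alone (adjusted p = 0.0356). Gsta3, of the same class, was low, with 0 units at E13.5, 0.359 at E15.5, 0.77 and 1.13 in the E18.5 libraries, 5.23 at P14, and 7.68 and 5.51 in the P56 libraries. It was 6.94-fold higher at P56 than in the E18.5 libraries (log2 change 1.95, SE 0.48, adjusted p = 0.0372), with 44 reads against 5, and edgeR lost this call when any 1 of the E18.5, P14 or P56 libraries was left out. Gsta1 and Gsta2, which share 27.7% of the shorter 3' end, did not exceed 2.26 units and were not tested.

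The Pi class copies Gstp1 and Gstp2 lie next to each other on chromosome 19 and share 78.0% of the shorter 3' end, counted in runs of 50 bases. Their tags therefore cannot be assigned with certainty. Gstp1 had 25.3 units at E13.5, 19.7 at E15.5, 20.02 and 9.04 in the E18.5 libraries, 26.7 at P14, and 38.1 and 43.1 in the P56 libraries. Gstp2 had 18.4 units at E13.5, 16.9 at E15.5, 9.62 and 9.42 in the E18.5 libraries, 22.01 at P14, and 27.3 and 26.2 in the P56 libraries. Both had their lowest stage mean at E18.5, and in both the P56 libraries lay above those of E18.5. P56 exceeded E18.5 2.79-fold for Gstp1 (log2 change 1.51, SE 0.38, adjusted p = 0.0392) and 2.81-fold for Gstp2 (log2 change 1.400, SE 0.28, adjusted p = 0.0167). With either one of the P56 libraries left out, edgeR made neither call, and it did not make that of Gstp1 without E18.5 replicate 2.

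Gstz1, which also isomerises maleylacetoacetate in tyrosine breakdown, had 10.9 units at E13.5, 15.8 at E15.5, 13.9 and 13.6 in the E18.5 libraries, 23.1 at P14, and 34.1 and 29.1 in the P56 libraries, and P56 exceeded E18.5 2.31-fold (log2 change 1.15, SE 0.28, adjusted p = 0.0342). edgeR did not make this call when either one of the P56 libraries or E18.5 replicate 2 was left out. Mgst1, a membrane-bound transferase, had 0.473 units at E13.5, 7.89 at E15.5, 8.47 and 1.51 in the E18.5 libraries, 12.9 at P14, and 23.6 and 17.5 in the P56 libraries. Its E18.5 replicates lay far apart. Limma on all libraries with a pseudocount of 1 did not call the change to P56 (log2 change 2.13, SE 0.62, adjusted p = 0.0643). The change was called by limma with a pseudocount of 5 (adjusted p = 0.0494) and on the E18.5 and P56 libraries alone (adjusted p = 0.0275). It was also called by edgeR's quasi-likelihood test (adjusted p = 0.043). Gsto1, Mgst3 and Gstt2 were tested without a call by limma on the deposited values of all libraries. With the values rescaled by DESeq2 size factors, limma called Mgst3 lower at E18.5 against the early stages (adjusted p = 0.0459).

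The Ugt1a genes encode glucuronosyltransferases from alternative first exons that are spliced to common last exons. In GENCODE release M21, 5 of the 8 rows end at the same base of chromosome 1 (88218997), and 23 pairs of rows share sequence runs in their last 500 bases, so most of the rows cannot be told apart by a 3' tag. Ugt1a7c, which ends at base 88220002, shared such runs with Ugt1a10 (43.7% of the shorter 3' end) and Ugt1a6a (43.6%) and with no other row. Summed over the rows the values were 0 units at E13.5, 0.359 at E15.5, 20.02 and 29.4 in the E18.5 libraries, 26.4 at P14, and 17.1 and 26.9 in the P56 libraries, from 0, 1, 52, 78, 96, 60 and 83 reads in the same order. The early libraries were at or near 0, and the E18.5 and P56 libraries overlapped. The sum rose at E18.5 against the early stages (log2 change 4.44, SE 0.39, adjusted p = 0.000332) and was not called in the later comparisons, with a log2 change of 0.12 at P14 and -0.17 at P56 against E18.5. Taken singly, Ugt1a1, Ugt1a2, Ugt1a5, Ugt1a6b, Ugt1a7c and Ugt1a9 were called higher at E18.5, each with 17 to 20 reads against 0, which is at least 7.53-fold to 8.90-fold with a floor of 3 reads over the early libraries. Of these single rows Ugt1a7c alone was still called without E13.5, Ugt1a5 was not called by limma without E15.5, and edgeR called neither Ugt1a1 nor Ugt1a5 without E18.5 replicate 2. Ugt1a10 and Ugt1a6a were not called by limma, and edgeR called Ugt1a6a higher at E18.5.

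Sulfotransferases rose in the 2 genes that could be tested. Sult1a1, which sulfates phenols, had 0 units at E13.5, 1.08 at E15.5, 9.24 and 6.41 in the E18.5 libraries, 20.9 at P14, and 24.8 and 30.4 in the P56 libraries. Every stage from E15.5 on lay above the one before it. With 41 reads at E18.5 against 3 before, the ratio was 18.3, with a counting interval of 5.83 to 92.2 (log2 change 2.595, SE 0.38, adjusted p = 0.00276), and P56 exceeded E18.5 3.53-fold (log2 change 1.71, SE 0.38, adjusted p = 0.0251). That second call was not made by edgeR without P56 replicate 2. Sult2b1, which sulfates cholesterol and related sterols, had 9.22 units at E13.5, 20.8 at E15.5, 8.09 and 9.42 in the E18.5 libraries, 23.4 at P14, and 58.3 and 50.2 in the P56 libraries. Its E18.5 values were below those of E15.5, and P56 exceeded E18.5 6.201-fold, at 54.3 ± 5.75 against 8.75 ± 0.943 (SD, n = 2 each; log2 change 2.502, SE 0.28, adjusted p = 0.00166). Sult1d1 and Sult2a1 had at most 0.709 units.

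At P14 and at P56 against E18.5, 5 and 16 of the 46 tested members were higher (1.87% and 8.07% of all tested genes). Ahr, the receptor through which dioxin-like compounds induce P450 genes, was called lower in both comparisons. It had 11.8 units at E13.5, 14.7 at E15.5, 42.4 and 27.9 in the E18.5 libraries, 7.15 at P14, and 10.8 and 11.01 in the P56 libraries. Both E18.5 libraries lay above all others, and they also differed from each other. E18.5 exceeded the early mean 2.65-fold (log2 change 1.32, SE 0.32, adjusted p = 0.0214), a call not made without the E13.5 library. P14 was 4.91-fold lower than E18.5 (log2 change -2.12, SE 0.396, adjusted p = 0.0391) and P56 3.22-fold lower, at 10.9 ± 0.14 against 35.1 ± 10.2 (SD, n = 2 each; log2 change -1.57, SE 0.32, adjusted p = 0.0196). Nqo1, a quinone reductase induced by the same receptor and by NRF2, had 0 to 0.825 units in the 7 libraries and was not tested.

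Other genes of the pathway, outside the symbol rule, were counted from a list of 63, of which 57 were listed in the libraries and 49 tested. At P56 against E18.5, 18 were higher, where 8.07% of all tested genes were higher, and 3 were lower (Adh1, Cebpb and Abcc5), where 6.15% were lower. At E18.5 against the early stages, 17 were higher, where 15.8% of all tested genes were higher, and Gsr was lower, where 13.4% were lower. Cbr2, a carbonyl reductase of lung, had 0.236 units at E13.5, 17.2 at E15.5, 440.4 and 527 in the E18.5 libraries, 2459 at P14, and 3497 and 4342 in the P56 libraries. It rose both at E18.5 against the early stages (log2 change 6.67, adjusted p = 4.01e-06) and at P56 against E18.5 (log2 change 3.01, adjusted p = 0.000212). Gclc, the rate-limiting enzyme of glutathione synthesis, had 12.997 units at E13.5, 23.3 at E15.5, 99.7 and 87.8 in the E18.5 libraries, 133 at P14, and 359 and 367 in the P56 libraries, with P56 3.87-fold E18.5 (log2 change 1.95, adjusted p = 0.00121).

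The xanthine dehydrogenase gene Xdh, whose protein is related to the aldehyde oxidases, had 0 units at E13.5, 0 at E15.5, 4.62 and 7.91 in the E18.5 libraries, 36.9 at P14, and 45.2 and 55.7 in the P56 libraries, and was 8.06-fold higher at P56 than at E18.5 (log2 change 2.85, adjusted p = 0.00416). Aldh3a1, an aldehyde dehydrogenase, had 0 units at E13.5, 0 at E15.5, 10.4 and 9.04 in the E18.5 libraries, 23.7 at P14, and 55.8 and 49.9 in the P56 libraries, and was 5.43-fold higher at P56 (log2 change 2.33, adjusted p = 0.00519). Both had 0 reads in the early libraries. Aldh3b1, another aldehyde dehydrogenase, had 0 units at E13.5, 3.23 at E15.5, 82.005 and 127 in the E18.5 libraries, 139.8 at P14, and 197 and 236 in the P56 libraries (log2 change 5.64, adjusted p = 3.46e-05 at E18.5 against the early stages). The paraoxonase genes Pon1 and Pon3 encode esterases. Pon1 had 0 units at E13.5, 0 at E15.5, 235 and 376 in the E18.5 libraries, 154 at P14, and 711 and 698 in the P56 libraries (log2 change 8.22, adjusted p = 6.54e-06 at E18.5 against the early stages), and was the one listed gene called higher at P56 against P14. Pon3 had 0.236 units at E13.5, 3.23 at E15.5, 28.5 and 24.1 in the E18.5 libraries, 43.7 at P14, and 59.8 and 62.5 in the P56 libraries (log2 change 3.57, adjusted p = 0.00022 in the same comparison).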

How the data were processed

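The 7 libraries were grouped by the stage in their labels. The mm10 build and the tools Bowtie2 2.2.5 and R 3.4.0 are named in the submitters' processing notes; what each did, the tag counter, the annotation and the scaling method are not given in the sources used here. As deposited, the signal per gene is a tag count that the authors divided by 1 factor per library: division by the smallest non-zero value gave whole reads, within 0.01 reads, for 100% of values. The tests compared stages within each gene. Tag position affects how well each gene is counted, so sums and shares over genes, and values called high or low, describe tags only.

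Genes were kept by filterByExpr by stage on the recovered reads (12964 of 21121). limma 3.58.1 (lmFit and eBayes with trend and robust estimates) was fitted to log2(value + 1) of all 7 libraries with a coefficient per stage and 2 residual degrees of freedom, with Benjamini-Hochberg adjustment over all tested genes at 0.05. The pseudocount of 1 pulls log2 changes of low genes towards 0; ratios of means do not carry it. Ratios against 0 reads use a floor of 3 reads, and those against 1 to 3 reads an exact 95% binomial interval of pooled reads, both for counting error only. Alternatives were quasi-likelihood tests of edgeR 4.0.16 on the recovered reads and DESeq2 1.42.0. Other scalings, pseudocounts and filters, a replicate block and fits without each library in turn were also used. Of the 46 tested members, edgeR called 23 higher at E18.5 against the early stages and 17 higher at P56 against E18.5. The shares of all genes that edgeR called in these comparisons were not counted. Summing the Ugt1a rows and leaving libraries out in edgeR were chosen after seeing the data. The code was tested on simulated data with known changes. Versions were R 4.3.3, Python 3.11.15, pandas 2.3.3 and matplotlib 3.10.9.

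The members, the gene lists and the naming rule were chosen with earlier results of these data known. Named are all members with a stage mean of at least 20 units, lower ones that a comparison called, and cluster neighbours; of the other pathway genes, the 4 with the smallest adjusted p at P56 against E18.5 and at E18.5 against the early stages, and the genes that fell. Gene positions are from GENCODE release M21 on mm10 and promoter windows from RefSeq (GRCm38.p6). Members that share a run of 50 bases in their last 500 bases (52 pairs of 31 members) may share tags. A percentage of the shorter 3' end is the share of such runs, pooled over a gene's transcripts, in the gene with fewer runs. Replicate numbers at E18.5 and P56 are not said to pair the libraries and were not used as pairs.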

Additional observations from a re-analysis of the deposited data

How the results depend on the processing

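Of the 44 called changes of members, the call and its direction were kept in 43 with a pseudocount of 0.5, 40 with a pseudocount of 5, 43 with TMM scaling, 44 with DESeq2 size factors, 44 with edgeR's quasi-likelihood test, 33 with DESeq2's Wald test, 30 without robust variance estimates and 17 without a filter on low values. With the Ugt1a rows summed all 38 other calls were kept, and in a fit of the E18.5 and P56 libraries alone all 18 at P56 against E18.5. Without the filter, 8 members were lower at E18.5 against the early stages, none was lower at P14 against E18.5 (0), 7 were higher and 0 lower at P56 against E18.5, and 2 were higher and 1 lower at P56 against P14. At E18.5 against the early stages 2 were lower with DESeq2 size factors. At P14 against E18.5 2 were lower with edgeR and 2 with DESeq2, which found 1 lower at P56 against E18.5. Without robust estimates, 0 were higher and 0 lower at P14 against E18.5, and 0 were lower at P56 against E18.5. A replicate block gave 8 higher at E18.5 against the early stages and 0 higher and 0 lower at P14 against E18.5. It gave 8 higher and 0 lower at P56 against E18.5. The share of all genes called is given above for some of these fits and was not counted for the others. The counts in this section therefore describe the members alone. Deviations of same-numbered libraries had a correlation of -0.062 over 6285 genes. One value over all genes cannot tell whether such libraries were handled together, and the labels do not say. With limma, any fit without an E18.5 or P56 library has 1 residual degree of freedom. Over all fits without 1 library, by limma or edgeR, the counts were 0 to 26 higher and 0 to 3 lower at E18.5 against the early stages, 0 to 10 higher and 0 to 2 lower at P14 against E18.5, 0 to 18 higher and 0 to 2 lower at P56 against E18.5, and 0 to 5 higher at P56 against P14. The log2 changes that turned sign in such fits were uncalled ones: Ephx1 (-1.56 to 0.47), Gsta4 (-0.059 to 0.43), Gstz1 (-0.20 to 0.35) and Mgst1 (-0.87 to 3.31) at E18.5 against the early stages, and Fmo2 (-0.17 to 0.32) and Gstm2 (-0.38 to 0.01) at P56 against E18.5. The cause of these differences was not tested. No scaling moved the median log2 change of all genes by over 0.1 except edgeR's at E18.5 against the early stages (0.13). Depth limits the 45 members with 1 to 38 reads, which the filter left untested. Without the filter some of them were called, among them Fmo5 (higher in 3 comparisons) and Ces2a (lower at E18.5 against the early stages). Ces2a had 3 reads at E13.5 and 0 in every other library, so its replicates showed no spread. Cyp2j5, Cyp4f14 and Ephx2, also called lower in that comparison, had 1 read each over all libraries. Such calls rest on counts near 0.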
